A study of Mus musculus with 8 samples.

Results

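Glyceraldehyde-3-phosphate dehydrogenase (Gapdh) and 9 other enzymes of glycolysis were examined in cochlear tissue of WT mice and of mice lacking miR-29a (KO). The 10 genes (Hk1, Gpi1, Pfkl, Aldoa, Tpi1, Gapdh, Pgk1, Pgam1, Pkm and Ldha) were chosen by symbol from the 21895 genes of the deposited expression table. Gapdh was chosen on its values in this comparison, which differed widely between libraries of the same genotype, and it is therefore described without a test. The other 9 enzymes were taken by their place in the pathway to ask whether they shared that instability. RNA-seq of whole cochlear tissue gave 8 libraries, WT1 to WT4 from WT mice and KO1 to KO4 from mice without miR-29a, all on the C57BL/6 background and otherwise untreated as far as the sources say. The record of the series gives an age of 21 days and the study's methods an age of 2 months. Nothing in the sources used here says whether a library came from 1 animal or from pooled animals, so p-values measure the spread between these libraries. The deleted microRNA was not analysed here, so no check of the labels by its level was made. The values are FPKM, fragments scaled to transcript length and to all mapped fragments. Levels can be compared between genes only to the extent that reads were assigned to the right gene.

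Glycolysis splits glucose into pyruvate in the cytosol. Hexokinase and phosphofructokinase spend ATP on the sugar, aldolase and triosephosphate isomerase turn it into glyceraldehyde-3-phosphate, and Gapdh oxidizes that product before phosphoglycerate kinase and pyruvate kinase make ATP. Lactate dehydrogenase then converts pyruvate and lactate into each other. Most of these enzymes exist as several isozymes from separate genes, and Gapdh, present in nearly every cell, is often used as a reference transcript in gene expression assays.

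The following sequences show what was deleted and how much of Gapdh recurs in other genes, compared with its neighbours in the pathway. The mature microRNA is encoded at chr6:31062673-31062694 on the minus strand (GRCm38, sequence from RefSeq), and the capitals mark its seed, bases 2 to 8.
miR-29a-3p: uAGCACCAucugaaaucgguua
The complement of the seed, TGGTGCT, occurred in 0 of the 10 enzymes when the longest 3′-UTR of each gene was searched, and in 15.5% of the tested genes (2294 of 14832). The next lines give 30-base stretches of coding sequence (GENCODE release 21, GRCm38, sense strand). The Gapdh stretch with the most identical copies lies in exon 4 at chr6:125162917-125162946 and was found in transcripts of 131 other genes. The Gapdh stretch with the fewest lies in exon 3 at chr6:125163397-125163426 and was still found in 10 other genes. The start of the Pgk1 coding sequence, in exon 1 at chrX:106187251-106187280, was found in 1 other gene. A stretch of Tpi1 in exon 1 at chr6:124814163-124814192 was found in 0. It is bases 105 to 134 of the transcript Tpi1-205 and counts as coding by the annotation of that transcript. No base is singled out by capitals in these lines.
Gapdh, most shared: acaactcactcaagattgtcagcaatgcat
Gapdh, least shared: attgggcgcctggtcaccagggctgccatt
Pgk1, least shared: atgtcgctttccaacaagctgactttggac
Tpi1, unshared: catctatataagtggccagtggagagagcc
Of the 834 such windows in the coding sequence of Gapdh that lie within a single exon, 0 were unique to Gapdh. For Pgk1, 0 of 935 windows were unique, and for Tpi1 454 of 697 were.

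None of the 9 enzymes other than Gapdh passed the test between KO and WT. Their log2 folds, KO minus WT, ranged from -0.13 for Aldoa to 0.32 for Ldha, with 5 above 0 and 4 below, and their median was 0.02 beside a median of 0.10 over all tested genes. In limma's test on log2(FPKM + 0.1), 0 of 9 had an unadjusted p under 0.05 (0.147 to 0.943), and their Benjamini-Hochberg adjusted p ranged from 0.947 to 0.996. At the same unadjusted threshold 5.12% of the 14990 tested genes passed, 4.61% higher and 0.507% lower in KO, and 0 passed after adjustment. Of those that passed, 691 were higher and 76 lower in KO, a split that became 402 and 363 after median-ratio scaling of the libraries. The groups overlapped for all 10 enzymes, while 3.50% of the tested genes had groups that did not overlap. The 10 enzymes all passed the filter on low values.

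**Figure D1:**
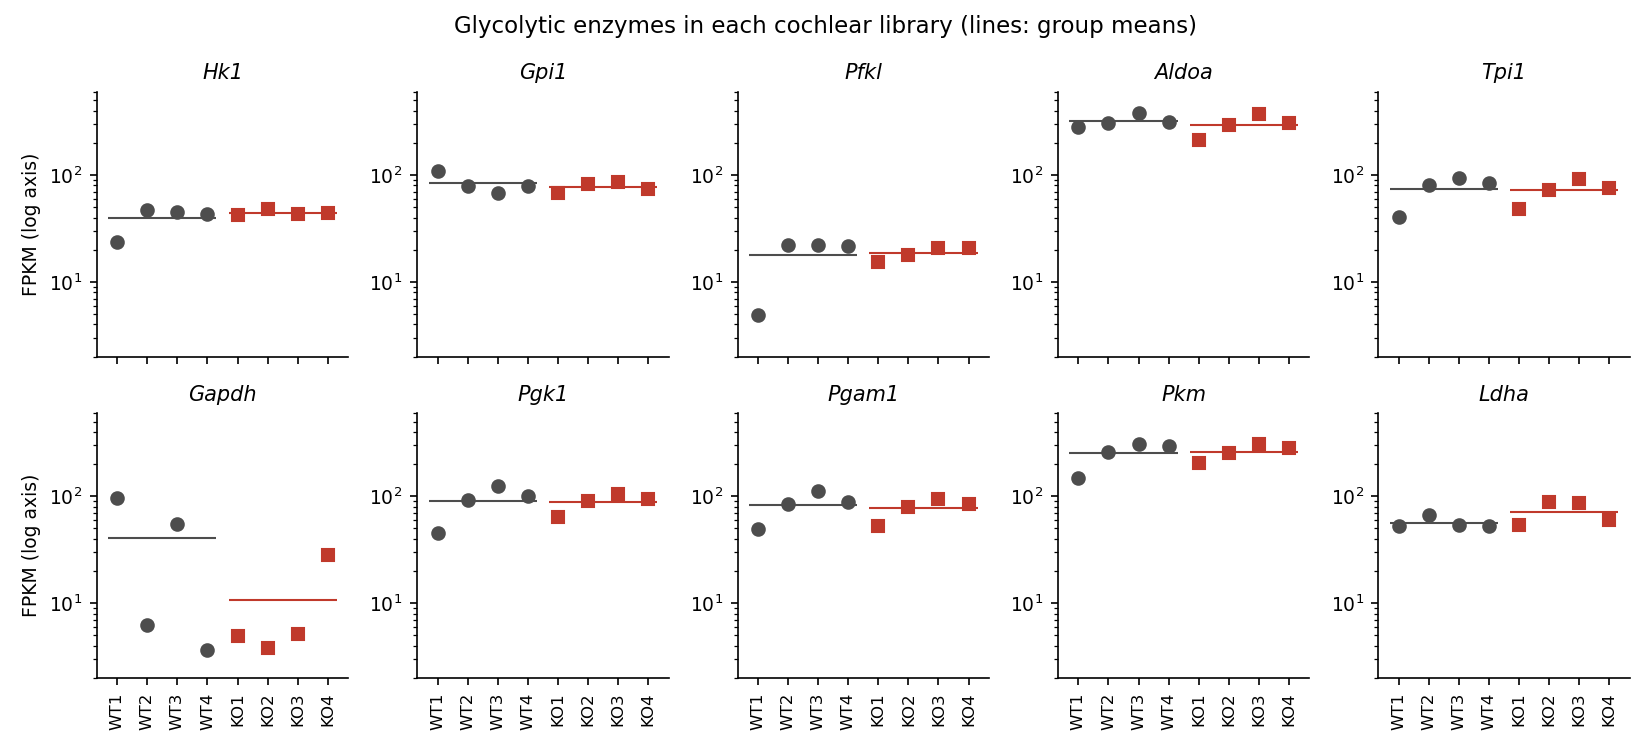
FPKM of the 10 enzymes in each library, on a log axis with the same range in every panel. Circles are WT libraries, squares KO libraries and lines the group means. Gapdh runs from 3.64 to 97.1, while 8 of the other 9 enzymes stay within a 2.75-fold range and Pfkl drops only in WT1.

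In mean FPKM over the 8 libraries, Aldoa (308) and Pkm (258) stood highest, and their ranges overlapped. Pgk1 (89.7), Gpi1 (80.9), Pgam1 (80.9), Tpi1 (73.4) and Ldha (64.3) followed, with overlapping ranges. Hk1 (42.1), Gapdh (25.5) and Pfkl (18.2) were lowest. Gapdh was thus lower on average than the enzymes immediately before and after it, Tpi1 and Pgk1, but in WT1 it was higher than both.

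Hexokinase 1 (Hk1, chr10:62268855-62379908, minus strand), which phosphorylates glucose on entry, had FPKM of 23.8, 47.0, 44.8 and 43.1 in WT1 to WT4 and 42.0, 48.7, 43.7 and 43.8 in KO1 to KO4. All libraries but WT1 lay close together. The log2 fold was 0.21 ± 0.22 (SE, n = 4 per group; limma, unadjusted p = 0.36, adjusted p = 0.968). Glucose-6-phosphate isomerase (Gpi1, chr7:34201330-34230336, minus strand) had 109, 79.9, 67.9 and 79.6 in WT and 67.8, 83.2, 85.5 and 74.3 in KO. It was the only 1 of the 9 that was highest in WT1, and its fold was -0.10 ± 0.18 (SE) on the log2 scale.

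The liver-type phosphofructokinase (Pfkl, chr10:77986947-78010083, minus strand), a subunit of the enzyme that commits sugar to glycolysis, had 4.95, 22.4, 22 and 21.5 FPKM in WT and 15.4, 18.0, 20.8 and 20.8 in KO. WT1 was 4.53-fold below the highest library, and the remaining 7 lay between 15.4 and 22.4. The log2 fold of 0.29 ± 0.46 (SE) became -0.24 without WT1. Aldolase A (Aldoa, chr7:126795234-126800751, minus strand), which cuts fructose-1,6-bisphosphate, had 285, 305, 379 and 313 in WT and 211, 297, 370 and 306 in KO. The table held a further row with the symbol Aldoa, a neighbouring gene model at chr7:126800790-126809108, with 0.312 to 0.936 FPKM, which was not counted as a member of the 10. Triosephosphate isomerase (Tpi1, chr6:124810586-124814296, minus strand), which makes the substrate of Gapdh, had 40.9, 80.3, 93.6 and 84.0 in WT and 48.4, 72.0, 91.9 and 75.9 in KO. Its lowest values were in WT1 and KO1, and its fold was -0.02 ± 0.30 (SE) on the log2 scale.

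Gapdh (chr6:125161715-125166467, minus strand) had FPKM of 97.1, 6.24, 54.7 and 3.64 in WT1 to WT4, with a mean of 40.4 ± 44.5 (SD, n = 4). In KO1 to KO4 it had 4.93, 3.80, 5.17 and 28.5, with a mean of 10.6 ± 12 (SD, n = 4). WT1, WT3 and KO4 were high, the other 5 libraries lay between 3.64 and 6.24, and the groups overlapped. The highest library was 26.7-fold above the lowest. The log2 fold of -1.35 is given as a description, since Gapdh was chosen on it. It became -0.57 without WT1 and -2.78 in the 6 libraries numbered 1 to 3 in each group.

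The within-group SD of Gapdh was 1.88 on the log2 scale. It was 0.77 for Pfkl and between 0.23 and 0.50 for the other 8, and the median over all tested genes was 0.36. Since Gapdh was chosen for its spread, its rank by SD is a description and not a test. An SD at least as large as that of Gapdh was found in 1.15% of the tested genes (172), and among the 6359 tested genes with a mean of at least 10 FPKM in 74. For Pfkl the corresponding share of tested genes was 13.6%. After median-ratio scaling the SD of Gapdh was 1.97 and that of the 9 others 0.19 to 0.61.

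Phosphoglycerate kinase 1 (Pgk1, chrX:106187100-106203699, plus strand), the ATP-making step that follows Gapdh, had 45.7, 92.3, 126 and 101 FPKM in WT and 64.2, 89.6, 105 and 94.3 in KO. Phosphoglycerate mutase 1 (Pgam1, chr19:41911923-41918660, plus strand) had 49.3, 84.6, 112 and 89.2 in WT and 53.3, 79.8, 94.4 and 84.3 in KO. Pyruvate kinase M (Pkm, chr9:59656368-59679375, plus strand) had 147, 261, 312 and 294 in WT and 204, 254, 311 and 282 in KO. All of these were lowest in library 1 and highest in library 3 of each genotype, as were Tpi1 and Aldoa. That order was seen in 5 of the 10 enzymes and in 5.85% of all tested genes, and after median-ratio scaling it held for Tpi1, Pgk1, Pgam1 and Pkm. The log2 folds were 0.02 ± 0.31 for Pgk1, -0.08 ± 0.28 for Pgam1 and 0.09 ± 0.28 for Pkm (SE, n = 4 per group).

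Lactate dehydrogenase A (Ldha, chr7:46841475-46855627, plus strand) had 52.6, 66.6, 54.2 and 53.3 FPKM in WT and 53.7, 88.3, 86.4 and 59.5 in KO. KO2 and KO3 were above every WT library, while KO1 lay within the WT values. Its log2 fold of 0.32 was the largest of the 9, with a 95% interval from -0.14 to 0.77 (limma, unadjusted p = 0.147, adjusted p = 0.947).

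**Figure D2:**
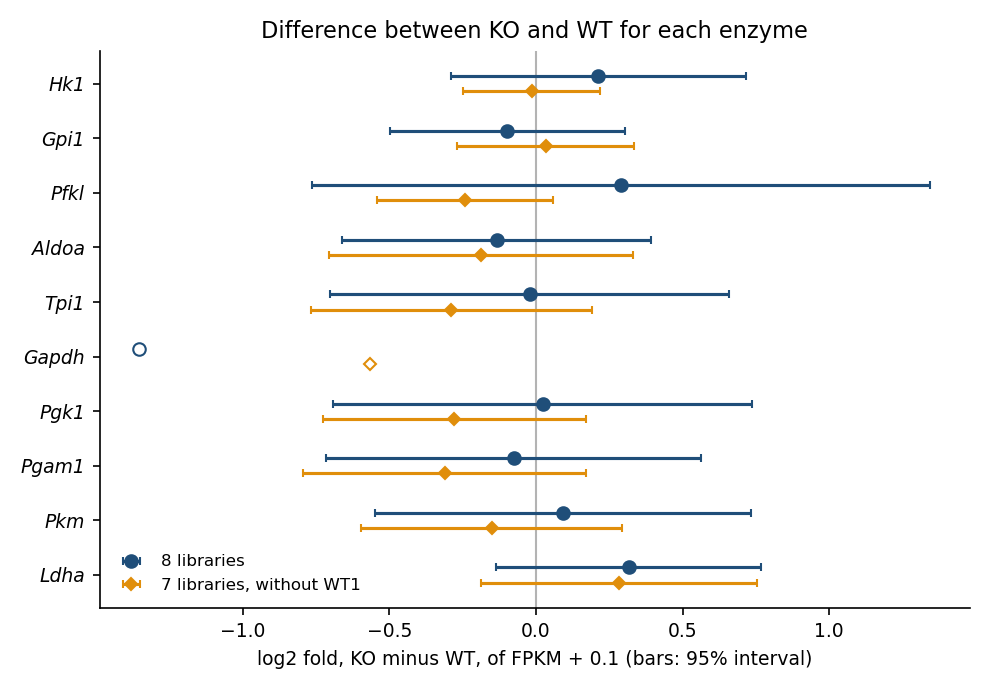
Log2 fold, KO minus WT, of FPKM + 0.1 for each enzyme, with 8 libraries (circles) and without WT1 (diamonds). Bars are 95% intervals from limma, and the open symbols of Gapdh carry none because it was chosen on this difference. All 18 intervals of the other 9 enzymes include 0.

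Leaving out WT1 changed the sign of 5 of the 9 folds. Without it, the log2 fold was -0.02 for Hk1, 0.03 for Gpi1, -0.24 for Pfkl, -0.28 for Pgk1 and -0.15 for Pkm, and 0 of 9 passed the test. WT1 was the lowest of the 8 libraries for 7 of the 9 enzymes (all but Gpi1 and Aldoa), and after median-ratio scaling for 4 (Hk1, Pfkl, Pgk1 and Pkm). Over all genes, the number passing the unadjusted threshold was 2922 without WT1 (12.1% of tested genes higher and 7.40% lower in KO) and 767 with it. The 95% interval for Pfkl was -0.76 to 1.35 on the log2 scale with all 8 libraries and -0.54 to 0.06 without WT1.

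Ratios within a library do not depend on scaling between libraries. The ratio of Gapdh to Tpi1 was 2.38 in WT1, 0.0777 in WT2, 0.585 in WT3 and 0.0433 in WT4, and 0.102, 0.0527, 0.0562 and 0.376 in KO1 to KO4. It differed 54.8-fold between the extreme libraries. The ratio of Pgk1 to Tpi1 stayed between 1.12 and 1.34, a 1.20-fold range, and that of Pgam1 to Pgk1 between 0.831 and 1.08. Enzymes on either side of Gapdh thus kept close ratios to each other in libraries where their ratio to Gapdh did not hold. Against the mean log2 level of the other 9 enzymes, Gapdh stood at -2.05 ± 2.55 in WT and -3.47 ± 1.32 in KO (SD, n = 4 each), and the difference of -1.42 was smaller than the SD within WT. The values of Gapdh over the 8 libraries fell into a set of 3 and a set of 5, neither large enough for a correlation with the other enzymes, and none is given.

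Gapdh is known for its many processed pseudogenes, copies of the mRNA that were inserted back into the genome. The main transcript, Gapdh-203, holds 1420 bases, and 82.5% of its 50-base words also occurred in annotated transcripts of other genes. The median word was found in 31 other genes and the most shared in 83. Of the 218 genes that shared at least 1 word with any Gapdh transcript, 213 were annotated as pseudogenes, and 5 were in the expression table. The corresponding share of words was 68.0% for Pgk1, 41.5% for Pgam1, 34.4% for Pkm, 19.3% for Gpi1, 17.1% for Ldha, 13.5% for Aldoa and 7.51% for Tpi1. It was 0.0543% for Pfkl and 0% for Hk1. How the authors treated reads that match several genes is not given in the sources used here, so the Gapdh values are uncertain to the extent that such reads were divided or dropped.

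**Figure D3:**
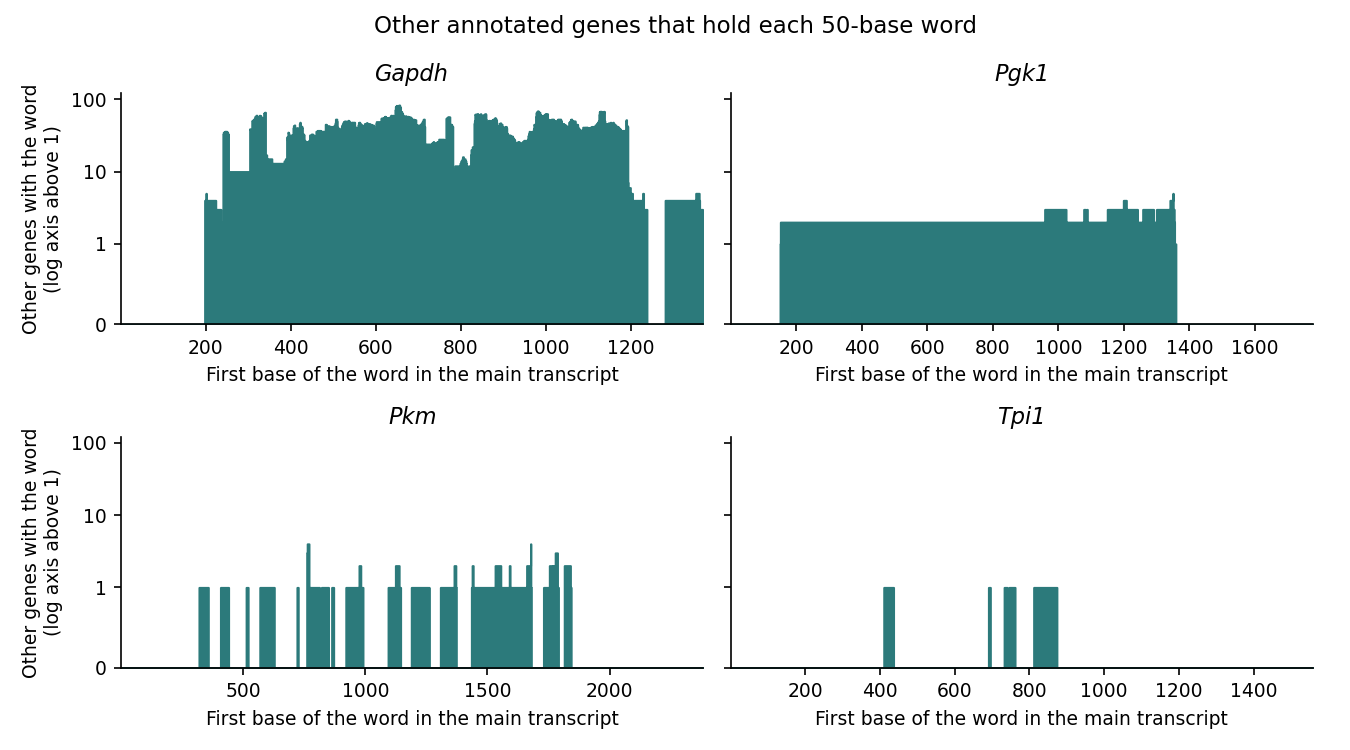
Number of other annotated genes that hold each 50-base word along the main transcripts of Gapdh, Pgk1, Pkm and Tpi1, by the position of the word's first base. Words of Gapdh reach 83 other genes, those of Pgk1 reach 5, those of Pkm reach 4 and those of Tpi1 reach 1.

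Copies of Gapdh in the table were near 0. Gm10358, the only gene in the table that shared at least 50% of the words of either partner with Gapdh, had 0 to 0.0575 FPKM. Gm3839, with 47.1% of its words in Gapdh, had 0.026 to 0.105 FPKM. Adding Gm10358 left the log2 fold of Gapdh at -1.35. Of 30 annotated copies that met the same limit, 29 were not in the table and were not analysed here. Pgk1 had 3 such copies and Pgam1 had 1, none of them in the table.

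For comparison, shared sequence and spread were read in other genes. Among the enolases, which act between Pgam1 and Pkm, Eno1 shared 72.2% of its words and Eno1b 84.5%, with a median of 2 other genes per word in each and within-group SDs of 0.25 and 0.28 on the log2 scale. The reference genes Tuba1a (tubulin, 72.9% shared), Eef1a1 (translation elongation, 59.2%) and Rpl13a (ribosomal protein, 57.4%) had SDs of 0.44, 0.23 and 0.47. Their median word was found in 3, 1 and 1 other genes, against 31 for Gapdh, so a similar percentage is not a similar number of copies. Of the 14 reference genes reported here, B2m (beta-2 microglobulin) had the largest SD, 0.59, with 0% of its words shared, and Polr2a (RNA polymerase II) the smallest, 0.11. The part of shared sequence in the Gapdh values was not tested.

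**Figure D4:**
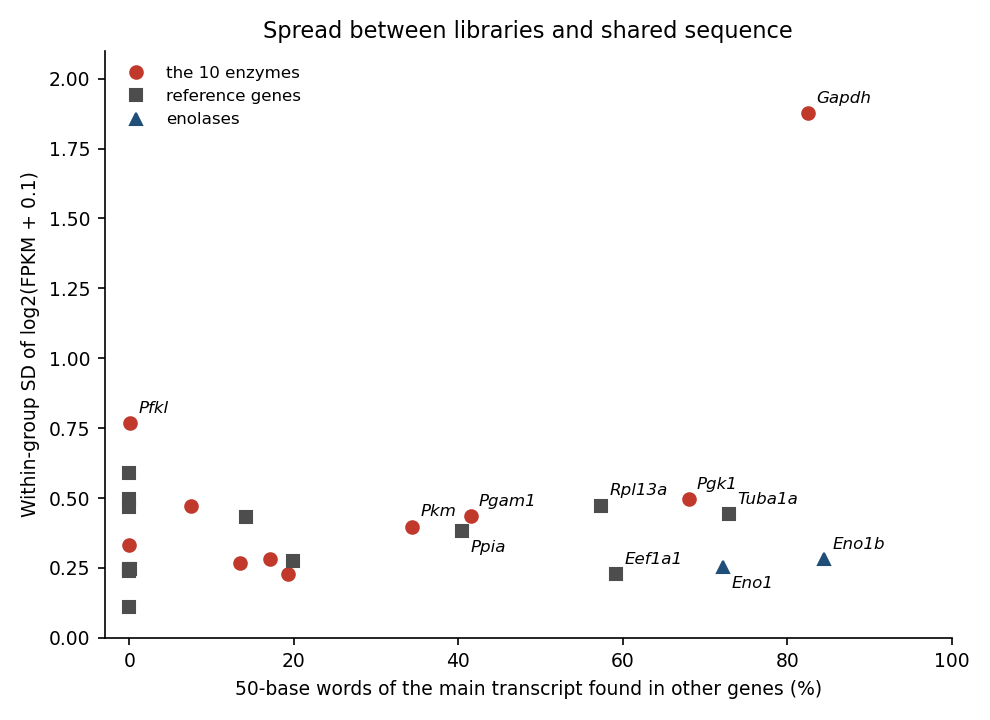
Within-group SD of log2(FPKM + 0.1) against the percentage of 50-base words of the main transcript found in other genes, for the 10 enzymes, 14 reference genes and the enolases Eno1 and Eno1b. Gapdh lies alone at 82.5% and 1.88, while Eno1b at 84.5% has an SD of 0.28. The axis does not show how many other genes hold each word, a median of 31 for Gapdh and 2 for Eno1b.

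Other isozymes make the same steps in different cells, and those named here for their shares were chosen after their values were seen. Hk1 made up 55.9% to 86.3% of the summed hexokinase FPKM, with the lowest share in WT1, and Hk3, an isozyme abundant in myeloid cells, 5.56% to 33.2%, with the highest in WT1. Pfkl was a minor phosphofructokinase at 11.9% to 18.6%, and the muscle-type Pfkm the major one at 46.3% to 58.3%. Aldoa supplied 77.9% to 95.2% of aldolase. Ldha supplied 13.5% to 34.6% of lactate dehydrogenase, and Ldhb, the subunit typical of oxidative tissue, most of the rest. Gapdh supplied 72.5% to 99.7% of its step, the sperm form Gapdhs having at most 27.5%, in KO2 where Gapdh itself was at 3.80 FPKM. In KO3, the muscle forms Pgam2 and Eno3 reached 9.03% and 12.1% of their steps, and the summed level of 12 skeletal muscle markers was 364.9 FPKM in that library against 1.07 to 44.8 in the other 7. The part of muscle tissue in these shares was not tested.

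**Figure D5:**
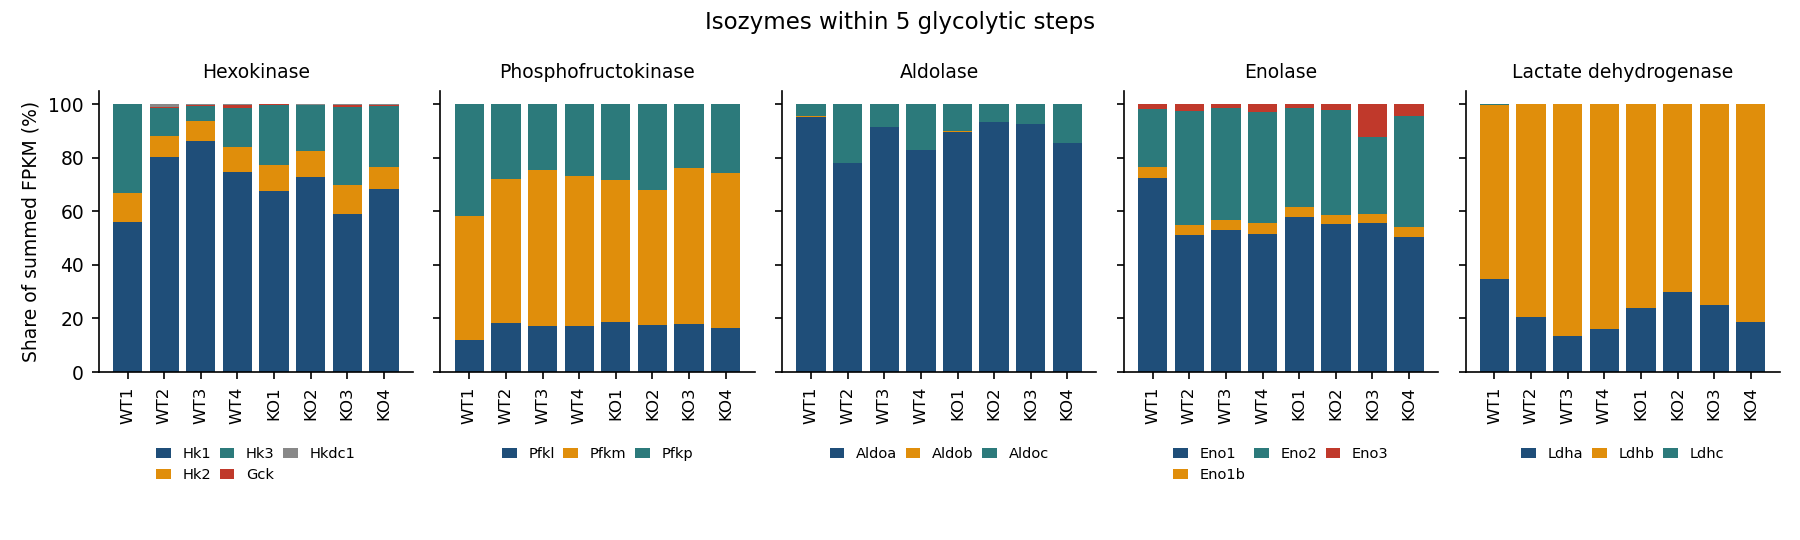
Share of each isozyme in the summed FPKM of 5 glycolytic steps, by library, as stacked bars from 0 to 100%. In WT1 the share of Hk1 is lowest, at 55.9%, and that of Ldha highest, at 34.6%. The FPKM of Ldha is not high in WT1, at 52.6, but that of Ldhb is low, at 99.0 against 171 to 349 elsewhere. Eno3 reaches 12.1% in KO3.

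Among 19 isozymes and relatives of the 10 enzymes, 13 were tested, and 3 were higher and 0 lower in KO at the unadjusted threshold. Beside them, 4.61% of all tested genes were higher and 0.507% lower. The median log2 fold was 0.18 for the list and 0.10 for all tested genes. Bpgm, which makes the 2,3-bisphosphoglycerate of red cells, rose from 20 ± 9.03 to 39.3 ± 7.89 FPKM (SD, n = 4 each; log2 fold 1.06 ± 0.32 SE; limma, unadjusted p = 0.0102, adjusted p = 0.947). WT1, at 32.0, lay above KO4, at 28.4, so the groups overlapped. Hk3 rose from 7.93 ± 4.74 to 15.5 ± 4.47 and Hk2, the insulin-responsive hexokinase, from 4.6 ± 0.586 to 6.45 ± 1.17, both with an adjusted p of 0.947. After median-ratio scaling Bpgm still passed the unadjusted threshold, and Hk3 and Hk2 did not. Without WT1, 4 of 14 genes of the list were higher and 2 lower, beside 12.1% and 7.40% of all tested genes in that fit. Eno1 and Ldhb, the most abundant of the list, had log2 folds of -0.08 and -0.01.

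Bpgm and Hk3 were highest among the WT libraries in WT1 and lowest in WT3, as were blood and marrow markers. The summed level of 8 erythroid markers was 449.5 to 7481 FPKM in WT and 4905 to 12110 in KO, and that of 8 neutrophil markers 51.7 to 9443 in WT and 1669 to 5072 in KO, with WT1 the highest and WT3 the lowest WT library in both. None of these markers was at 0 in all libraries. At the unadjusted threshold 2 of 8 erythroid and 0 of 8 neutrophil markers were higher in KO, beside 4.61% of all tested genes. Without WT1, 8 of 8 and 8 of 8 were higher, beside 12.1% of all tested genes in that fit. After median-ratio scaling 0 of 8 and 0 of 8 passed. The part of blood and marrow cells in the values of Bpgm and Hk3 was not tested. In bulk tissue, fewer cells of a type and less RNA per cell cannot be told apart.

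Genes that feed glycolysis or draw from it were read beside all tested genes. Of those, 4.61% were higher and 0.507% lower in KO at the unadjusted threshold, with a median log2 fold of 0.10. Of 10 tested glucose and lactate transport genes, 2 were higher and 0 lower in KO, with a median log2 fold of 0.12. They were the monocarboxylate carriers Slc16a1, from 13.6 ± 3.73 to 19.7 ± 3.42 FPKM, and Slc16a3, from 3.09 ± 1.68 to 6.24 ± 2.48 (SD, n = 4 each; limma, adjusted p = 0.947 for both). Slc16a1 did not pass the unadjusted threshold without WT1, nor Slc16a3 after median-ratio scaling or quantile normalization. The glucose transporter Slc2a1 had 29.7 ± 8.57 in WT and 28.2 ± 3.38 in KO, and Bsg, the chaperone of the monocarboxylate carriers, 137 ± 21.8 and 150 ± 24.0 (SD, n = 4 each). Among regulators of glycolysis, 0 of 14 passed, with a median of 0.11, and the hypoxia factors Hif1a and Epas1 had log2 folds of -0.20 and 0.03. Among genes of pyruvate entry into mitochondria, 0 of 14 passed, with a median of 0.08, and the pyruvate dehydrogenase subunits Pdha1 and Pdhb had 0.05 and 0.18. Among genes of gluconeogenesis and glycogen, 0 of 15 passed, with a median of 0.10, and Pygb (glycogen phosphorylase) and Ugp2 (UDP-glucose synthesis) had 0.05 and -0.08. Without WT1, 2 regulators were higher, 1 gene of pyruvate entry was lower, and 2 genes of gluconeogenesis and glycogen were higher and 1 lower. In that fit 12.1% of all tested genes were higher and 7.40% lower.

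The pentose phosphate pathway, which branches off after hexokinase, had 2 of 8 tested genes higher and 0 lower in KO, beside 4.61% and 0.507% of all tested genes, with a median log2 fold of 0.29. Rpia, which isomerizes ribose-5-phosphate, had 3.72, 7.23, 5.12 and 7.26 FPKM in WT and 9.97, 12, 12.6 and 9.2 in KO. All KO libraries lay above all WT libraries, and the log2 fold was 0.94 ± 0.24 (SE; limma, unadjusted p = 0.00376, adjusted p = 0.922). Pgd, the 6-phosphogluconate dehydrogenase, rose from 30.4 ± 8.04 to 43.1 ± 7.87 (SD, n = 4 each; limma, adjusted p = 0.947), and did not pass the unadjusted threshold after median-ratio scaling. Without WT1, 5 of 8 genes of this list were higher, beside 12.1% of all tested genes in that fit. Pgd, Tkt and Taldo1 were highest among the WT libraries in WT1, at 42, 104 and 77.8 FPKM. The summed neutrophil and erythroid markers were too, at 9443 and 7481, whereas Rpia was lowest of all libraries in WT1, at 3.72. The part of neutrophils and erythroid cells in this list was not tested. Tkt and Taldo1, transketolase and transaldolase, had log2 folds of 0.18 and 0.30.

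Of the 14 reference genes, 1 was higher and 0 lower in KO, beside 4.61% and 0.507% of all tested genes. Their median log2 fold was 0.13, beside 0.10 for all tested genes. The gene that was higher was the transferrin receptor Tfrc, from 68.9 ± 15.3 to 95.3 ± 8 FPKM (SD, n = 4 each; limma, unadjusted p = 0.0267, adjusted p = 0.947). Actb (actin) and Eef1a1, the most abundant, had log2 folds of 0.32 and 0.12 and differed 2.43-fold and 1.54-fold between their extreme libraries, against 26.7-fold for Gapdh. Without WT1, 2 reference genes were higher, beside 12.1% of all tested genes in that fit.

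By Pearson's r of log2(FPKM + 0.1) over the 8 libraries, the genes most like Gapdh among 14125 with a mean of at least 1 FPKM were Sec16a (0.93), Sos2 (0.92), Wnk1 (0.90), Iqgap2 (0.88) and Zfhx4 (0.88). These are descriptions of likeness from points that fall into separate sets, with no test. They are the highest of 14125 values of r from 8 libraries, so values this high can arise by chance. None of the genes was as variable as Gapdh, the highest library being 1.31-fold to 1.77-fold above the lowest. Wnk1 had 93.5, 76.7, 106 and 74.4 FPKM in WT and 79.9, 71.3, 69.5 and 91.8 in KO, with the highest values in WT1, WT3 and KO4.

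The libraries were of similar size in the table, with total FPKM from 249221 to 288695 and a relative depth, estimated from values under 0.1 FPKM, between 0.953 and 1.165. The 10 most abundant genes held 17.6% of the total in WT1 and 8.50% to 10.9% elsewhere. A single gene, Gm8797, held 7.09% of the total in WT1 and at most 0.0918% in any other library. Its part in the other values of WT1 was not tested. The median-ratio factor was 0.772 in WT1 and 0.934 to 1.089 elsewhere. Markers of hair cells, supporting cells and fibrocytes, and neurons and glia had 0 of 8 genes called in each list (1 supporting cell and 1 neuronal marker lower without WT1, and 1 hair cell marker lower after quantile normalization), with summed levels of 46.9 to 80.1, 1558 to 2419 and 664.3 to 1995 FPKM, and among markers of the stria vascularis 0 of 8 were higher and 1 (Tyr) was lower in KO (4 after median-ratio scaling and 6 without WT1). Summed levels of the hair cell, strial and neuronal lists were lowest in WT1. Of 10 tested skeletal muscle markers 2 were higher in KO (Mylpf and Mb), with 43.5 and 13.6 FPKM in KO3, and 1 without WT1. Among all tested genes 4.61% were higher and 0.507% lower with all libraries, and 12.1% and 7.40% without WT1.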

How the data were processed

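Cochlear RNA-seq of 4 WT and 4 miR-29a KO libraries was analysed by the genotype and replicate number in the labels. The authors removed ribosomal RNA, made strand-specific libraries, mapped their paired reads with Hisat2, and deposited 1 FPKM value for each gene and library. The tool and annotation behind the FPKM are not given in the sources used here. The submitters' processing notes name mm9, while 90.3% of gene coordinates equal GENCODE release 21 on GRCm38, including those of all members. FPKM carry no counts, so depth and counting error are unknown. Date-like symbols of 27 genes were restored, and 0 columns were left unused.

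Genes with a mean of at least 0.5 FPKM were tested as log2(FPKM + 0.1) with limma 3.58.1 (R 4.3.3, genotype only, variance trend, two-sided), and called at an unadjusted p under 0.05. Folds are on that scale. Adjusted p-values are Benjamini-Hochberg values over all tested genes. The fit was also run on simulated data in which each gene varied independently. That run held no shift shared by the genes of a library, so it does not cover such shifts here. Shared sequence was counted as identical 50-base words between GENCODE transcripts. A main transcript is the APPRIS principal isoform. Median-ratio scaling divided each library by its median ratio to the geometric mean.

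The members and lists were chosen with earlier results of these data known, and 1 listed reference gene is not reported here. Named genes were the members, their copies in the table, up to 3 called genes with the smallest p and the 2 most abundant genes of each list, and the 5 genes most like Gapdh. B2m, Polr2a, Tuba1a, Rpl13a, Eno1b, Gm3839 and Gm8797, and isozymes named for their shares, fell outside this rule and were chosen after their values were seen. Alternatives changed the scaling, pseudocount, filter, variance trend, block and libraries used.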

Additional observations from a re-analysis of the deposited data

Results flagged for a closer look

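A library far from the other 3 of its genotype on the log2 scale was found in 4 of 22 groups examined, for the 10 enzymes and the ratio of Gapdh to the others. Chance flags about 1 in 20 independent groups, but Gapdh was chosen for its spread and 2 of the 4 share WT1, so the count is not read against that share. The gap to the nearest library, as a share of the group's range, was 0.973 for Pfkl in WT (WT1, 4.95 FPKM), 0.871 for Hk1 in WT (WT1, 23.8 FPKM), 0.867 for Ldha in WT (WT2, 66.6 FPKM) and 0.849 for Gapdh in KO (KO4, 28.5 FPKM). Gapdh in WT, with high values in WT1 and WT3, was not among them.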

How the results depend on the processing

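The count of 0 among the 9 enzymes held in each of the 16 alternatives, and in 144 refits of their folds the smallest unadjusted p was 0.0507. A sign changed in 19 of the 144. For Pgk1 and Pkm the log2 fold became -0.077 and -0.008 after median-ratio scaling and -0.135 and -0.078 after quantile normalization, and for Tpi1 it became 0.019 in libraries 1 to 3 of each group. When a library was left out, folds ranged from -0.015 to 0.31 for Hk1, -0.19 to 0.033 for Gpi1, -0.24 to 0.48 for Pfkl, -0.25 to 0.019 for Aldoa, -0.29 to 0.16 for Tpi1, -0.28 to 0.21 for Pgk1, -0.31 to 0.10 for Pgam1, -0.15 to 0.21 for Pkm, 0.21 to 0.45 for Ldha and -2.13 to -0.57 for Gapdh. The cause was not tested. Gapdh relative to the other enzymes ranged from -2.25 to -0.44 and Gapdh with its copy from -2.13 to -0.56 when a library was left out. In libraries 1 to 3 of each group these were -2.89 and -2.78. With every gene in the table that shares at least 1 word added to Gapdh, the log2 fold over all 8 libraries was -0.78, beside -1.35 for Gapdh alone. That sum was 24.9 FPKM in WT2 and 21.4 in KO2, where Gapdh alone had 6.24 and 3.80. The added genes may share as little as 1 word, so the sum is not a level of Gapdh and its copies. The number of genes called ranged from 347 (without KO3) to 2922 (without WT1), with 377 without KO2. The number with an adjusted p under 0.05 was 3 without the filter, 1 in libraries 1 to 3 of each group, and 0 to 1 when a library was left out (1 without WT4). Quantile normalization moved the median log2 fold of all genes from 0.10 to -0.04. The share of called genes that were higher was 90.1% and became 52.5% after median-ratio scaling, 40.9% after quantile normalization and 61.9% without WT1. Bpgm and Rpia passed the unadjusted threshold in all 16 alternatives, Hk3 in 7, Hk2 in 9, Slc16a3 in 8 and Pgd in 6. A replicate block in the model gave 838 calls in all and 0 of 9 enzymes. With that block the SE was lower for all of the 9 enzymes but Gpi1, for Tpi1 0.13 instead of 0.30. After subtraction of group means, WT and KO libraries with 1 number correlated at 0.42, -0.24, -0.17 and 0.21. Whether the numbers pair the libraries or mark a shared batch was not tested. The planned correlation of Gapdh with each enzyme gave 0 of 9 with an adjusted p under 0.05 in each setting and is not read, since Gapdh falls into separate sets. Without counts, what depth limits is unknown.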

Other observations

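The Gapdh primers listed by the study for quantitative PCR were matched to the annotated mouse transcripts. The study's methods name β-actin, not Gapdh, as the reference for its quantitative PCR. The forward primer differed from the closest stretch of Gapdh-203 at 1 of 20 bases and matched transcripts of Gm3839, Gm5177 and Gm7336 exactly, and the reverse primer differed from Gapdh-203 at 3 of 20 bases and matched 0 genes exactly. The capitals are not used in these lines.
Forward: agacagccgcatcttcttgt
Reverse: cttgccgtgggtagagtcat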
